A study of Saccharomyces cerevisiae with 6 samples.

Results

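The genes described here are the vacuolar protein sorting genes of budding yeast, Saccharomyces cerevisiae, taken as every gene whose symbol is VPS followed by a number. Of 42 such symbols in the RefSeq gene table, 40 had a probe set in the platform's annotation, among 5498 probe sets with 1 S. cerevisiae gene and 10928 on the array. Each of the 40 had a single probe set. VPS63 and VPS501 had no annotated probe set and were not analysed here. Probe sets of the fission yeast genes with the same names in lower case were left out.

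The data are 6 samples of the strain labelled BY4743, given as MATa/α his3Δ1 leu2Δ0 met15Δ0 ura3Δ0 lys2Δ0, so that both groups carry these alleles. Cells were grown in YPD, a rich medium, at 25 °C for 2 days. In the zymolyase group, 3 samples received 30 U/ml of zymolyase, a mixture of enzymes that digests the glucan of the yeast wall, for 10 min at 37 °C, and 3 untreated samples were the control. The temperature of the control at that step is not given in the sources used here, so 37 °C and the enzyme cannot be told apart, and nothing in the labels says that replicates were separate cultures, so the p-values cover the spread of these arrays only, which may be technical. The defining genes of an a/α diploid were checked. STE3 and MF(ALPHA)1, which α cells express, had control means of 3035 ± 89.7 and 13248 ± 1346. HO and RME1, which a/α diploids repress, had 1214 ± 65.2 and 2049 ± 152, against 48.4 ± 11.1 and 32.8 ± 6.94 for the a-cell genes STE2 and MFA1. The deleted genes URA3 and LEU2 were not at background, with control means of 1802 ± 66.8 and 671 ± 38.5. These values go against the label, and the name of the strain is therefore used here as a label only.

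Vps proteins were found in screens for mutants that secrete vacuolar enzymes in place of sorting them. Most work at endosomes. ESCRT complexes sort ubiquitinated membrane proteins into vesicles inside the endosome, CORVET and HOPS tether endosomes and vacuoles before they fuse, retromer returns receptors from the endosome to the Golgi, and GARP tethers the returning vesicles at the Golgi. The lipid kinase Vps34 marks the endosome membrane with phosphatidylinositol 3-phosphate, which several of these proteins bind. Sorting of wall enzymes and plasma membrane proteins runs through the same endosomes.

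Values are MAS5 signals in intensity units, scaled per array by the authors, so they are relative to the other transcripts of an array. In these bulk samples fewer cells with a transcript and less of it per cell cannot be told apart. A change was called at an adjusted p under 0.05 in limma, fitted over all 5394 tested probe sets, and log2 fold changes are zymolyase minus control. The 99th percentile of probe sets of the second species on the array, a measure of cross-hybridisation, was between 21.0 and 31.4 per array. On its dimmest array every VPS gene was at least 4.62 times that percentile, except VPS51 at 1.27 times. The coefficient of variation over 3 arrays had a median of 5.61% in the control and 6.82% with zymolyase across the 40 genes.

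As a whole the VPS genes were called about as often as the rest of the array. Of 40, 10 rose, 18 fell and 12 did not pass. The share called was 70.0%, beside 71.5% of all tested probe sets. Risers were 25.0% of VPS genes, beside 32.6% of all tested probe sets, and fallers 45.0%, beside 38.9%. The median log2 fold change was -0.20 for the VPS genes and -0.08 for all tested probe sets. At least 2-fold rises were found for 3 VPS genes, VPS8, VPS17 and VPS13 (8.06% of all tested probe sets), and at least 2-fold falls for 0 (2.21%), with limma. With the gene length trend removed, as described below, the number of at least 2-fold rises went from 3 to 0 (6.4% of all tested probe sets), since no VPS gene then reached a log2 fold change of 1. At an unadjusted p under 0.05 that count of falls was also 0. The control and zymolyase arrays did not overlap for 28 of the 40 genes (73.3% of all tested probe sets), 12 higher (33.4%) and 16 lower with zymolyase (39.9%). Directions were mixed within complexes: in every one of ESCRT, HOPS/CORVET, retromer, GARP and the Vps34 kinase complex, at least 1 VPS gene rose and at least 1 fell. The fall in GARP, that of VPS51, was lost with some arrays left out, without an intensity trend and with the gene length trend removed (values below). Of all tested probe sets 32.6% rose and 38.9% fell, and whether the mix is particular to these complexes was not tested.

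**Figure D1:**
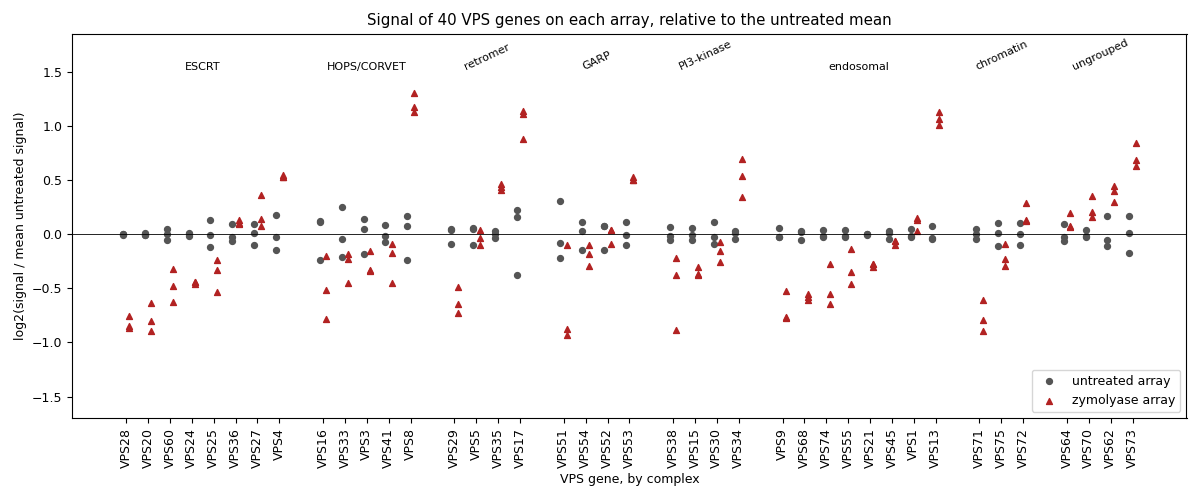
Each point is 1 array: the log2 signal of a VPS gene minus the mean log2 signal of its 3 control arrays (vertical axis), for 40 genes grouped by complex (horizontal axis), grey circles for control and red triangles for zymolyase. VPS8, VPS17 and VPS13 have all 3 zymolyase arrays well above the control arrays, and VPS28, VPS20 and VPS71 have all 3 well below.

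Transcripts of ESCRT moved both ways, with more falls than rises. Of 8 VPS genes of ESCRT, 5 fell (VPS28, VPS20, VPS60, VPS24 and VPS25), 1 rose (VPS4) and 2 did not pass (VPS27 and VPS36); the median log2 fold change was -0.41. The share that fell was 62.5%, beside 38.9% of all tested probe sets. The 5 that fell were all under 1000 nt, a length at which 61.0% of all tested probe sets fell. VPS4, VPS27 and VPS36 were longer (1314, 1869 and 1701 nt), and the median length of the 8 genes was 709.5 nt. With the gene length trend removed, 4 were lower and 1 was higher, beside 40.1% and 28.8% of all tested probe sets. VPS28 encodes a subunit of ESCRT-I. Its signal was 796, 796 and 789.8 on the control arrays and 441, 435 and 469 with zymolyase (log2 fold change -0.83 ± 0.07 SE, limma adjusted p = 1.7e-07), which is 1.77-fold lower. The control arrays lay within 6.26 units of each other and no zymolyase array came near them. VPS20, whose product starts the ESCRT-III filament, had 469, 468 and 475 on the control arrays and 270.1, 253 and 302 with zymolyase (log2 fold change -0.78 ± 0.09 SE, limma adjusted p = 3.6e-06). Both groups were again apart. VPS4 encodes the ATPase that disassembles ESCRT-III. Its signal was 1278, 1603 and 1392 on the control arrays and 2039.6, 2065 and 2049 with zymolyase (log2 fold change 0.53 ± 0.07 SE, limma adjusted p = 2.6e-05), 1.45-fold higher, with the zymolyase arrays within 25.5 units of each other and above every control array. The ESCRT-III genes VPS60 and VPS24 also fell, VPS60 from 749.9 ± 25.5 to 542 ± 56.9 and VPS24, which acts late in the filament, from 677 ± 7.03 to 498 ± 3.42 (means ± SD, n = 3; limma adjusted p = 0.00015 and 3.4e-05). In ESCRT-II, VPS25 fell from 333 ± 29.2 to 259 ± 26.4 (n = 3, limma adjusted p = 0.0064) while VPS36 had a log2 fold change of 0.11 ± 0.07 (adjusted p = 0.18). VPS27, the ubiquitin-binding subunit of ESCRT-0, had 0.19 ± 0.09 (adjusted p = 0.07, and 0.038 without zymolyase replicate 1).

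Many ESCRT subunits carry symbols other than VPS. With the 7 further subunits on the list that have an older VPS name, 15 genes, 10 fell, 3 rose and 2 did not pass. The 66.7% that fell stand beside 38.9% of all tested probe sets and 61.0% of those under 1000 nt. The median length of these 15 genes was 723 nt. With the gene length trend removed, 6 were lower and 3 were higher, beside 40.1% and 28.8% of all tested probe sets. The risers beside VPS4 were STP22, also Vps23, the ubiquitin-binding subunit of ESCRT-I, and BRO1, also Vps31, which recruits a deubiquitinase to the endosome. STP22 had a signal of 198, 162 and 183 on the control arrays and 421, 431 and 424 with zymolyase, 2.36-fold higher (log2 fold change 1.24 ± 0.10 SE, limma adjusted p = 1.6e-07). BRO1 had 262, 242 and 232 on the control arrays and 557, 538 and 554 with zymolyase, 2.24-fold higher (log2 fold change 1.16 ± 0.08 SE, limma adjusted p = 5.1e-08). The zymolyase arrays of both genes were above all of their control arrays. The other ESCRT-I subunits went the opposite way: beside VPS28, SRN2 had a log2 fold change of -0.60 ± 0.14 (adjusted p = 0.0019) and MVB12, not a VPS name, of -1.03 ± 0.07 (adjusted p = 2.6e-08). SNF8 of ESCRT-II fell by 0.89 on the log2 scale (adjusted p = 3.4e-07), and the ESCRT-III genes DID2, DID4 and SNF7 had -0.65, -0.28 and -0.18 (adjusted p = 1.4e-05, 0.00029 and 0.029). SNF7, the main filament subunit, lost its call without control replicate 1 (adjusted p = 0.11) or zymolyase replicate 1 or 2 (0.058 and 0.091). On the list of 15 ESCRT partners as a whole, which includes these subunits, 5 rose, 10 fell and 0 did not pass. These are 33.3% and 66.7%, beside 32.6% and 38.9% of all tested probe sets. Among all tested probe sets under 1000 nt 61.0% fell, and the median length of this list was 1002 nt. With the gene length trend removed, 4 were higher and 7 were lower, beside 28.8% and 40.1% of all tested probe sets. HSE1 of ESCRT-0 then lost its rise (limma adjusted p = 0.083). The fall of DOA4 was near the threshold (log2 fold change -0.22, limma adjusted p = 0.048), and its call was lost in 9 alternative fits.

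Among the tethering complexes CORVET and HOPS, VPS8 rose and the other VPS genes fell or did not pass. VPS8 encodes a subunit found in CORVET and not in HOPS. Its signal was 135, 178 and 167 on the control arrays and 358, 392 and 348 with zymolyase (log2 fold change 1.20 ± 0.12 SE, limma adjusted p = 1.1e-06), 2.3-fold higher and the largest rise of the 40 genes. Of 5 VPS genes of these complexes, 1 rose (VPS8), 2 fell (VPS16 and VPS33) and 2 did not pass (VPS3 and VPS41), with a median log2 fold change of -0.28. These are 20% and 40%, beside 32.6% and 38.9% of all tested probe sets. VPS16, a core subunit of both complexes, had 269.9, 211 and 272 on the control arrays and 174, 145 and 217 with zymolyase (log2 fold change -0.50 ± 0.15 SE, limma adjusted p = 0.0095). Its groups overlapped, since zymolyase replicate 3 was above control replicate 2. VPS33, the core subunit that binds SNARE proteins, had 362, 263 and 294 on the control arrays and 268, 259 and 222 with zymolyase (log2 fold change -0.29 ± 0.12 SE, limma adjusted p = 0.0498). Its groups overlapped too. The call was lost without a filter on dim probe sets (0.0535), with the 99th percentile filter (0.0503), under quantile normalization (0.055) and without an intensity trend (0.1). It was also lost without control replicate 1 (adjusted p = 0.24) or 3 (0.07) and without zymolyase replicate 2 (0.061) or 3 (0.17). VPS3, the other CORVET-specific subunit, had a log2 fold change of -0.28 ± 0.12 (adjusted p = 0.0531), which passed under quantile normalization (0.039), median centring (0.025), no intensity trend (0.0474) and the replicate block (0.0499), and without control replicate 2 (0.022) or zymolyase replicate 3 (0.04). VPS41, specific to HOPS, had -0.24 ± 0.13 (adjusted p = 0.12). The subunits under other symbols had 0.15 ± 0.11 for PEP5 (Vps11, adjusted p = 0.27), -0.40 ± 0.13 for PEP3 (Vps18, adjusted p = 0.013) and 0.22 ± 0.10 for VAM6 (Vps39, adjusted p = 0.077). The call of PEP3 was lost without control replicate 3 (0.072) or zymolyase replicate 1 (0.0504), and VAM6 passed without control replicate 1 (0.039) or zymolyase replicate 2 (0.0497).

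Among genes that act in the same fusion step, falls outnumbered rises. Of 15 partners of HOPS and CORVET (PEP3, PEP5 and VAM6 among them, with GTPases, their exchange factor and SNARE proteins), 1 rose, 10 fell and 4 did not pass, with a median log2 fold change of -0.40. The 66.7% that fell stand beside 38.9% of all tested probe sets and 61.0% of those under 1000 nt, where the median length of this list was 995 nt. With the length trend removed 10 were lower and 1 was higher, beside 40.1% and 28.8% of all tested probe sets. VAM3, a vacuolar SNARE, had 724, 605 and 639 on the control arrays and 304, 331 and 269.8 with zymolyase, 2.18-fold lower (log2 fold change -1.12 ± 0.09 SE, limma adjusted p = 3.1e-07). YPT7, the vacuolar GTPase to which HOPS binds, had 6173, 4964 and 5283 on the control arrays and 2697, 2803 and 2562 with zymolyase, 2.03-fold lower (log2 fold change -1.02 ± 0.07 SE, limma adjusted p = 7.9e-08). No zymolyase array of VAM3 or YPT7 reached a control array.

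The genes of retromer changed unequally within each of its parts. Retromer joins a trimer of Vps35, Vps29 and Vps26, which binds cargo, with a pair of sorting nexins, Vps5 and Vps17, which bind the membrane. Of 4 VPS genes, 2 rose (VPS17 and VPS35), 1 fell (VPS29) and 1 did not pass (VPS5). These are 50% and 25%, beside 32.6% and 38.9% of all tested probe sets. VPS17 had 637, 419 and 609.9 on the control arrays and 1182, 1203 and 1002 with zymolyase (log2 fold change 1.04 ± 0.13 SE, limma adjusted p = 1.2e-05), 2.06-fold higher. Control replicate 2 was the lowest control array, and all 3 zymolyase arrays were above the highest. VPS35 had 662, 649 and 631 on the control arrays and 891, 873 and 860.3 with zymolyase (log2 fold change 0.43 ± 0.06 SE, limma adjusted p = 2.6e-05). VPS29 had 1046, 1038 and 949.7 on the control arrays and 608, 644 and 719 with zymolyase (log2 fold change -0.62 ± 0.07 SE, limma adjusted p = 7.0e-06), 1.54-fold lower. The groups of VPS35 and VPS29 did not overlap, in opposite directions. With the gene length trend removed, as described below, VPS35 did not pass (log2 fold change 0.11, limma adjusted p = 0.11). VPS5 had a log2 fold change of -0.03 ± 0.09 (adjusted p = 0.78), and Vps26, under the symbol PEP8, 0.04 ± 0.07 (0.58). The cargo receptor Vps10, under the symbol PEP1, rose from 1493 ± 79.8 to 2055 ± 101 (SD, n = 3, limma adjusted p = 1.7e-05). Of 10 partners (PEP8, other sorting nexins and cargo proteins), 0 rose by limma, 3 fell and 7 did not pass. The 30.0% that fell stand beside 38.9% of all tested probe sets. With the gene length trend removed 1 was higher and 6 were lower, beside 28.8% and 40.1% of all tested probe sets. At an unadjusted p under 0.05 with the deposited scaling, 1 was higher, the receptor gene MRL1. The largest change was that of SNX3, a sorting nexin, with 1605, 1466 and 1463 on the control arrays and 672, 709 and 705 with zymolyase, 2.17-fold lower (log2 fold change -1.12 ± 0.06 SE, limma adjusted p = 8.1e-09). YIP5, a Golgi membrane protein, fell from 2523 ± 49.9 to 1965 ± 42.8 (n = 3, limma adjusted p = 2.9e-05).

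In GARP the subunits ranged from a rise to a fall. Of 4 genes, VPS53 rose, VPS51 fell and VPS52 and VPS54 did not pass. This is 25% each way, beside 32.6% risen and 38.9% fallen of all tested probe sets. VPS53 had 544, 502 and 469.9 on the control arrays and 728, 714 and 714 with zymolyase (log2 fold change 0.51 ± 0.07 SE, limma adjusted p = 2.9e-05), 1.42-fold higher with no overlap. VPS51, the dimmest VPS gene, had 65.4, 71.6 and 93.8 on the control arrays and 41.3, 40.0 and 71.1 with zymolyase (log2 fold change -0.63 ± 0.26 SE, limma adjusted p = 0.043). Its groups overlapped: zymolyase replicate 3 was above control replicate 1. Its call was lost without an intensity trend (0.064), and without control replicate 2 (adjusted p = 0.068) or 3 (0.17) and without zymolyase replicate 1 (0.12) or 2 (0.13). VPS54 had 523, 437 and 495 on the control arrays and 395, 425 and 451 with zymolyase (log2 fold change -0.19 ± 0.09 SE, limma adjusted p = 0.062), with overlap, and it passed without control replicate 2 (0.019) or zymolyase replicate 3 (0.039). VPS52 had a log2 fold change of -0.01 ± 0.11 (adjusted p = 0.96). The partners of GARP (the GTPases, SNARE proteins and tethers of the same Golgi step) had more falls than rises: of 10, 0 rose by limma and 0 were higher at an unadjusted p under 0.05, 8 fell and 2 did not pass, with a median of -0.50. The 80.0% that fell stand beside 38.9% of all tested probe sets and 61.0% of those under 1000 nt. The median length of the list was 934.5 nt, but it also holds longer genes, such as GEA2 (4380 nt). With the length trend removed, 0 were higher and 9 were lower, beside 28.8% and 40.1% of all tested probe sets. SYS1, a Golgi membrane protein that brings the GTPase Arl3 to the Golgi, had 1880.3, 1871 and 1857 on the control arrays and 723, 725 and 646 with zymolyase, 2.68-fold lower (log2 fold change -1.42 ± 0.06 SE, limma adjusted p = 1.2e-09). YPT6, the GTPase that recruits GARP, had 1203, 1200.1 and 1167 on the control arrays and 589, 496 and 638 with zymolyase, 2.08-fold lower (log2 fold change -1.06 ± 0.08 SE, limma adjusted p = 1.6e-07). The zymolyase arrays of both were below all control arrays.

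The lipid kinase complex also moved both ways. VPS34, the only phosphatidylinositol 3-kinase of this yeast, rose, with 514, 489 and 509 on the control arrays and 816, 729 and 638 with zymolyase (log2 fold change 0.52 ± 0.09 SE, limma adjusted p = 0.00012). Its regulatory protein kinase VPS15 fell, with 586, 561 and 543 on the control arrays and 436, 432 and 456 with zymolyase (log2 fold change -0.35 ± 0.07 SE, limma adjusted p = 0.00057). Neither pair of groups overlapped. VPS38, which directs the kinase to endosomes, had 331, 314 and 306 on the control arrays and 243, 172 and 271 with zymolyase (log2 fold change -0.50 ± 0.14 SE, limma adjusted p = 0.0072), with zymolyase replicate 2 the lowest array. VPS30, also Atg6, had a log2 fold change of -0.16 ± 0.10 (adjusted p = 0.14).

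Of 8 further endosomal or Golgi VPS genes, 1 rose, 5 fell and 2 did not pass, with a median log2 fold change of -0.30. These are 12.5% and 62.5%, beside 32.6% and 38.9% of all tested probe sets. With the gene length trend removed 1 was higher and 5 were lower, beside 28.8% and 40.1% of all tested probe sets, but they were not the same 5. VPS21 and VPS55 then lost their falls, and VPS1 and VPS45 were called lower. VPS13, a lipid transfer protein at membrane contact sites and the longest VPS gene, rose, with 924, 995 and 917 on the control arrays and 2058, 1978 and 1906 with zymolyase (log2 fold change 1.07 ± 0.06 SE, limma adjusted p = 8.2e-09), 2.1-fold higher. VPS9, the exchange factor that activates the endosomal GTPase Vps21, fell, with 269, 285 and 269 on the control arrays and 160.0, 162 and 191 with zymolyase (log2 fold change -0.69 ± 0.11 SE, limma adjusted p = 6.7e-05). VPS68, an endosomal membrane protein, had 3398, 3218 and 3386 on the control arrays and 2267, 2234 and 2180.1 with zymolyase (log2 fold change -0.58 ± 0.05 SE, limma adjusted p = 4.0e-07). For each of VPS13, VPS9 and VPS68 the groups were apart. VPS21 itself, VPS55, the partner of VPS68, and VPS74, which holds mannosyltransferases in the Golgi, fell as well, and their log2 differences were -0.28 ± 0.05, -0.31 ± 0.08 and -0.49 ± 0.08 (adjusted p = 0.00024, 0.0025 and 0.00016). The dynamin-like GTPase VPS1 had 0.10 ± 0.06 (adjusted p = 0.12) and VPS45, which binds SNARE proteins, -0.08 ± 0.07 (0.36).

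Some VPS symbols name genes with other known functions. VPS71 and VPS72 encode subunits of SWR1, which puts a histone variant into chromatin, and VPS75 encodes a histone chaperone. VPS71 fell, with 493, 461 and 475 on the control arrays and 275, 257 and 313 with zymolyase (log2 fold change -0.76 ± 0.09 SE, limma adjusted p = 6.3e-06), while VPS72 had a log2 fold change of 0.18 ± 0.10 (adjusted p = 0.12). VPS75 had 891, 767 and 832 on the control arrays and 778, 676 and 705 with zymolyase (log2 fold change -0.21 ± 0.08 SE, limma adjusted p = 0.027). Its groups overlapped, and its call was lost without an intensity trend (0.067), without control replicate 1 (0.11) or 3 (0.063) and without zymolyase replicate 2 (0.11) or 3 (0.059). In the remaining group, VPS73 rose, with 422, 333 and 379.7 on the control arrays and 581, 605 and 674 with zymolyase (log2 fold change 0.72 ± 0.09 SE, limma adjusted p = 1.7e-05), 1.64-fold higher. VPS62 had 413, 341 and 355 on the control arrays and 499.9, 486 and 453 with zymolyase (log2 fold change 0.38 ± 0.09 SE, limma adjusted p = 0.0018) and VPS70 715, 739.8 and 710.1 on the control arrays and 834, 919.8 and 803 with zymolyase (log2 fold change 0.24 ± 0.07 SE, limma adjusted p = 0.0065). All 3 of these genes had every zymolyase array above the control arrays, as had 33.4% of all tested probe sets. Risers were 75% of this group of 4, beside 32.6% of all tested probe sets. VPS64, also Far9, had a log2 fold change of 0.11 ± 0.08 (adjusted p = 0.21). VPS52, VPS72 and VPS60 lie next to each other on chromosome IV, and of these neighbours VPS60 passed the test. The RefSeq intervals of VPS5, VPS38 and VPS75 overlap those of VAM10, DCR2 and CWC25. The overlap was found from coordinates without regard to strand, so it does not show that their signals hold transcripts of both.

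Direct partners were then compared by the ratio of their signals within an array, which shows unequal change and not a level. The 17 pairs were chosen after the values were seen, as subunits known to act together, and tested with a two-sided exact permutation test over the 6 arrays, which cannot give a p under 0.1. The p was 0.1, adjusted 0.121 over the 17 pairs, for the 14 pairs whose arrays did not overlap between groups, so none passed a threshold of 0.05. The arrays of the other 3 overlapped: VPS33 to VPS16 (log2 difference 0.21, exact permutation p = 0.5), VPS27 to HSE1 (-0.03, p = 0.9) and VPS52 to VPS51 (0.63, p = 0.3). The ratio of STP22 to VPS28 in ESCRT-I was higher with zymolyase by 2.06 on the log2 scale. That of VPS8 to VPS3 in CORVET was higher by 1.48, that of VPS4 to its activator VTA1 by 1.13, and that of VPS17 to VPS5 in retromer by 1.07. In each of these pairs 3 of 3 zymolyase arrays had a higher ratio than any control array. The same held for VPS35 to VPS29 (1.06), VPS72 to VPS71 (0.94), VPS34 to VPS15 (0.87) and VPS53 to VPS54 (0.70). For VPS9 to VPS21 the difference was -0.40 and for VPS68 to VPS55 -0.27. Both members of these last pairs fell. The remaining pairs were VPS36 to VPS25 (0.48), VPS35 to PEP8 (0.39), VPS41 to VAM6 (-0.46) and VPS38 to VPS30 (-0.33). With the gene length trend removed, as described next, these differences were 1.81, 1.43, 0.96 and 1.14 for the first pairs, in that order, but 0.62 for VPS35 to VPS29, 0.47 for VPS72 to VPS71, 0.05 for VPS35 to PEP8, -0.03 for VPS36 to VPS25, 0.06 for VPS52 to VPS51, -0.21 for VPS38 to VPS30 and -0.79 for VPS9 to VPS21. They were 0.72 for VPS53 to VPS54, 0.99 for VPS34 to VPS15, -0.28 for VPS68 to VPS55, -0.44 for VPS41 to VAM6, 0.24 for VPS33 to VPS16 and -0.17 for VPS27 to HSE1.

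**Figure D2:**
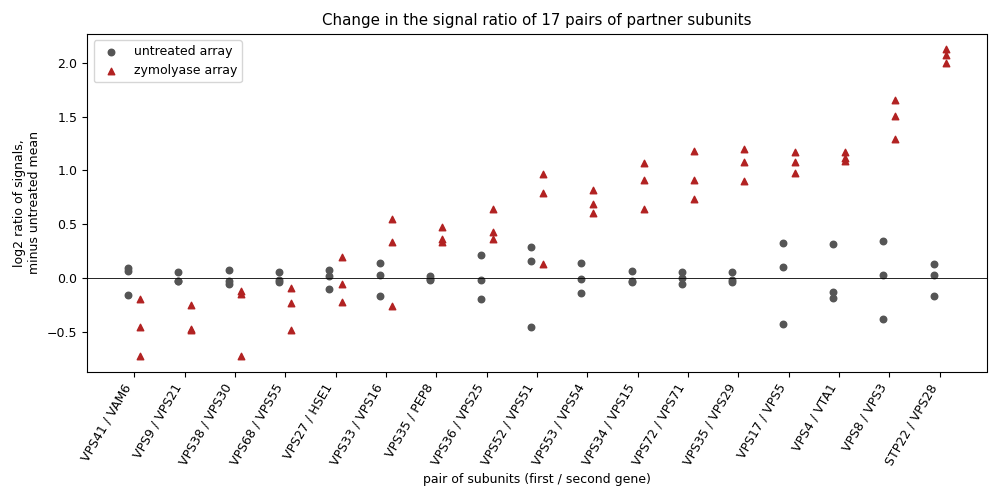
Log2 ratio of the signals of 2 partner genes on each array, minus its mean over the control arrays (vertical axis), for 17 pairs (horizontal axis), grey circles for control and red triangles for zymolyase. The ratio of STP22 to VPS28 is shifted furthest, by 2.06 on average.

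Changes of VPS genes followed coding length, as they did on the array as a whole. Lengths are those of the RefSeq gene intervals, introns included and nearly all without untranslated regions. All 12 VPS genes under 1000 nt fell, beside 61.0% of the 2041 tested probe sets of that length. Of 13 VPS genes from 1000 to under 2000 nt, 4 rose and 3 fell (30.8% and 23.1%), beside 36.1% and 31.5% of all 2125 such probe sets. Of 15 VPS genes of 2000 nt and over, 6 rose and 3 fell, beside 52.7% and 14.8% of all 1228 such probe sets. Across the 40 genes the correlation of log2 fold change with log2 length was 0.61 (Pearson) and 0.58 (Spearman), and across all 5394 probe sets 0.33 and 0.41. These are correlations across genes on the same 6 arrays, and genes are not independent replicates. Labelling runs from the 3' end, and the ratio of the 3' to the 5' probe set of ACT1 was between 1.86 and 2.19 on the control arrays and between 2.33 and 2.54 with zymolyase. The part of this shift in the results was not tested.

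**Figure D3:**
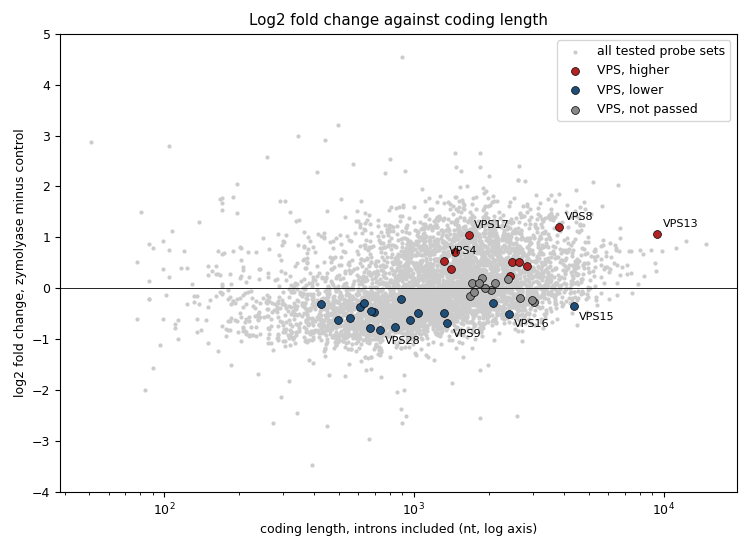
Log2 fold change, zymolyase minus control (vertical axis), against coding length in nt (horizontal log axis), grey for all 5394 tested probe sets and large points for the 40 VPS genes by call. The 12 VPS genes under 1000 nt all lie below 0, and VPS13 is the longest.

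The fit was repeated with the length trend of each array removed. Of the VPS genes, 8 were then higher and 20 lower (28.8% and 40.1% of all tested probe sets), 28 of 40 in either direction (68.9%), and of the 12 short genes 7 were lower (58.3%, beside 41.4% of all tested probe sets of that length). The rises of VPS8 (0.81, adjusted p = 6.6e-05), VPS17 (0.85, 7.5e-05), VPS73 (0.58, 0.00011) and VPS4 (0.46, 0.00014) and that of STP22 (1.24, 2.4e-07) were kept. The log2 fold change of VPS13 went from 1.07 to 0.44, that of VPS53 from 0.51 to 0.21 and that of VPS34 from 0.52 to 0.21, all still called. VPS35 and VPS70 lost their rises (0.11 and -0.06, adjusted p = 0.11 and 0.48), as did PEP1 (0.01, 0.85). Lost falls were those of VPS25, VPS51, VPS21, VPS55 and VPS75 (adjusted p = 0.58, 0.29, 0.86, 0.95 and 0.6), and of SRN2, DID4 and SNF7 (0.062, 0.39 and 0.36). The falls of VPS28, VPS20, VPS29, VPS71 and VPS9 stayed, with -0.57, -0.50, -0.51, -0.58 and -0.78. Falls of long genes became larger, as in VPS15 (-0.78, adjusted p = 6.6e-07) and VPS16 (-0.79, 0.00042). The long genes VPS3, VPS41 and VPS54 were then called lower (-0.62, -0.58 and -0.50), as were VPS1, VPS5, VPS30 and VPS45. Of 5 HOPS/CORVET genes 1 was thus higher and 4 were lower, beside 28.8% and 40.1% of all tested probe sets.

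**Figure D4:**
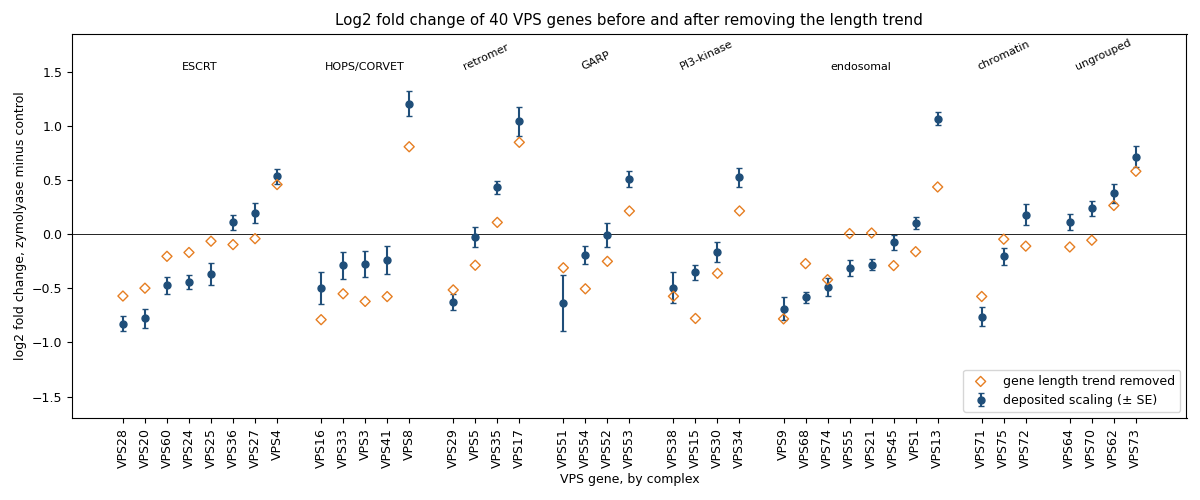
Log2 fold change of 40 VPS genes by complex, with the deposited scaling (blue circles, bars are ± SE, n = 3 arrays a group) and with the gene length trend removed (open orange diamonds). VPS8, VPS17 and VPS4 stay above 0, VPS28 and VPS20 stay below, and VPS55 and VPS21 move to near 0.

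The zymolyase arrays did not shift equally. Among the 18 VPS genes that fell, zymolyase replicate 3 was the highest of the zymolyase arrays for 13 (72.2%, beside 37.2% of all fallen probe sets). Among the 10 that rose it was the lowest for 8 (80.0%, beside 41.8% of all risen probe sets). The shifts on that array were thus the smallest of the group for most called VPS genes. Without it, 10 VPS genes were called higher and 18 lower, but not the same 18. VPS33 and VPS75 lost their falls (limma adjusted p = 0.168 and 0.0594), and VPS3 and VPS54 were then called lower (0.0395 and 0.0388).

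Lists of genes that act before or after the VPS machinery were set beside it. Most genes on the vacuolar hydrolase list rose. Of 14, 11 rose (78.6%, beside 32.6% of all tested probe sets), 0 fell by limma (0 at an unadjusted p under 0.05) and 3 did not pass (PRC1, YSP3 and VTH1), with a median log2 fold change of 0.81, beside -0.08 for all tested probe sets. The list also holds genes that are not delivered enzymes. NTH1, a cytosolic trehalase, and LAP3, a mainly cytosolic aminopeptidase with the largest rise of the list, were among the risers. VTH1, a homologue of the Vps10 receptor, did not pass. LAP3, an aminopeptidase, had 869, 719 and 759.7 on the control arrays and 1922, 1932 and 2123 with zymolyase, 2.55-fold higher (log2 fold change 1.35 ± 0.07 SE, limma adjusted p = 8.5e-09). PRB1, the vacuolar proteinase B, had 1102, 1057 and 1085 on the control arrays and 2542, 2598 and 2396 with zymolyase, 2.32-fold higher (log2 fold change 1.22 ± 0.05 SE, limma adjusted p = 1.6e-09). PEP4, proteinase A, which activates the others, rose from 7279 ± 184 to 8643 ± 74.9 (n = 3, limma adjusted p = 0.00056). Carboxypeptidase Y, PRC1, the enzyme whose secretion defined the first VPS mutants, had 6888 ± 133 and 7297 ± 287 (n = 3, limma adjusted p = 0.17). With the length trend removed, 10 genes of this list were higher and 1 was lower, beside 28.8% and 40.1% of all tested probe sets.

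Of 14 genes of clathrin and the adaptors that load vesicles, 5 rose, 4 fell and 5 did not pass (35.7% and 28.6%, beside 32.6% and 38.9% of all tested probe sets). With the gene length trend removed, 4 were higher and 8 were lower, beside 28.8% and 40.1% of all tested probe sets. APS1 and APS3, small subunits of the adaptors AP-1 and AP-3, fell from 1220.3 ± 130.0 to 751 ± 25.5 and from 707 ± 32.2 to 455 ± 41.8 (n = 3, limma adjusted p = 3.3e-06 and 1.0e-05). Of 19 genes of the V-ATPase, which acidifies the vacuole, and its assembly factors, 5 rose, 12 fell and 2 did not pass (median -0.22). The 63.2% that fell stand beside 38.9% of all tested probe sets and 61.0% of those under 1000 nt. With the gene length trend removed, 4 of these genes were higher and 10 were lower, beside 28.8% and 40.1% of all tested probe sets. VMA1, the catalytic subunit, had 4238, 4089 and 3277 on the control arrays and 8191, 7791 and 6869 with zymolyase, 1.98-fold higher (log2 fold change 0.98 ± 0.09 SE, limma adjusted p = 7.6e-07). VMA21, an assembly factor of the V-ATPase, had 3794, 3863 and 3890.2 on the control arrays and 2039.7, 2024 and 1920.5 with zymolyase, 1.93-fold lower (log2 fold change -0.95 ± 0.05 SE, limma adjusted p = 6.3e-09). The groups of neither gene overlapped. The V-ATPase list had a median length of 648 nt, against 1716 nt for the hydrolases, but it also holds longer genes, such as VMA1 (3216 nt).

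**Figure D5:**
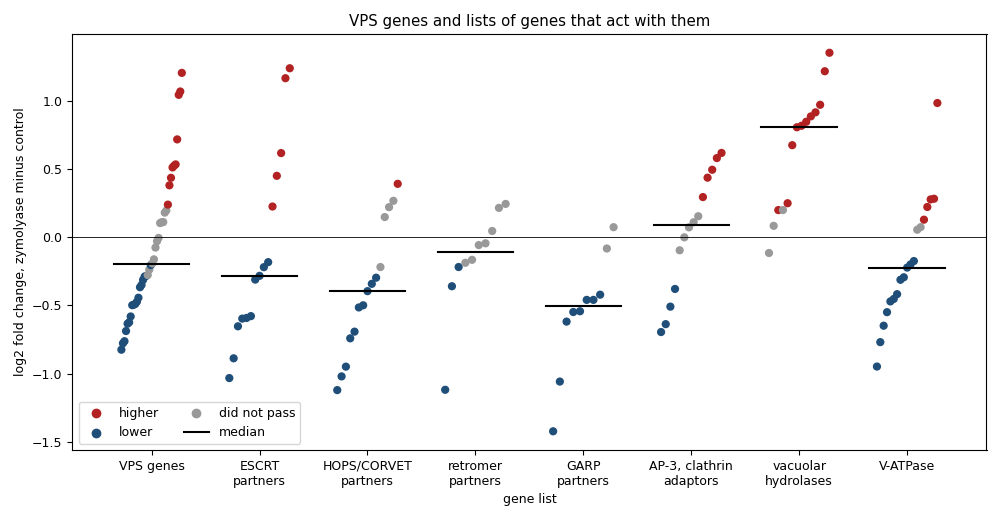
Log2 fold change, zymolyase minus control (vertical axis), of each gene in the VPS set and in 7 lists (horizontal axis), red where higher, blue where lower and grey where the test was not passed, with the median as a line. The vacuolar hydrolases lie mostly above 0 with a median of 0.81, and the GARP partners mostly below with a median of -0.50.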

How the data were processed

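RNA of 6 samples, 3 per group, was labelled from the 3' end, and each sample had its own Affymetrix array, per the labels' protocols. Each deposited value is the linear intensity of a probe set. MAS5 made it, per the submitters' processing notes, which give no version. The trimmed mean signal was between 500.41 and 500.43 on every array, and this scaling was kept. The number of arrays limits the precision.

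Groups came from the sample titles. Gene names came from GEO's platform annotation, joined by Entrez gene ID to RefSeq genes (assembly R64). Named genes outside that table, 1747 probe sets, were taken as the second species on the array. S. cerevisiae probe sets were tested where their mean signal passed 10.1, the 90th percentile over second-species probe sets, 5394 of 5498, all 40 VPS genes among them. The model was limma's (version 3.58.1, R 4.3.3), with eBayes set to an intensity trend, on log2 signals with no offset, and Benjamini-Hochberg adjustment ran over all tested probe sets. The brightest probe set stood for a gene. The procedure was also run on simulated data with independent noise, 200 changed probe sets and no length trend. That setting differs from these data, so the run lends no support to the calls. The length trend was a local regression (span 0.5, degree 1) of each array's deviations on log2 length.

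The VPS genes and lists were chosen with earlier results of these data known. Array values are given for the 3 members with the largest change in each group, for every member changed at least 2-fold, and for the largest rises and falls of the rest. In each partner list the 2 called genes with the largest change are named. PEP4, PRC1, MVB12, VTA1 and the subunits with older VPS names were added after their values were seen. Alternatives were other filters, the length trend removed, a replicate block, a fit with no intensity trend, median centring, an offset of 50, quantile normalization, multi-match probe sets left out and each array left out.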

Additional observations from a re-analysis of the deposited data

How the results depend on the processing

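Over all alternatives the count of VPS genes called higher was between 8 and 11, and of those called lower between 15 and 20, within 1.5 times of 10 and 18. For 24 of 40 VPS genes no alternative changed the call, 20 of them called. Removing the length trend gave 4 lower genes for HOPS/CORVET, 1 higher and 2 lower for retromer. It reversed the sign of VPS1 (-0.16), VPS21 (0.01), VPS27 (-0.04), VPS36 (-0.10), VPS55 (0.01), VPS64 (-0.12), VPS70 (-0.06), VPS72 (-0.11), PEP5 (-0.20), SNF7 (0.07) and VAM6 (-0.13). HOPS/CORVET had 1 lower gene without a filter and 1 with the 99th percentile filter, and between 1 and 3 with arrays left out singly. GARP had 2 lower genes under quantile normalization, 2 under median centring, 0 by limma without an intensity trend (1 at an unadjusted p under 0.05), and between 0 and 2 with arrays left out singly. It had 0 by limma without control replicate 3 or zymolyase replicate 1 or 2 (also 0 at an unadjusted p under 0.05). The higher ESCRT genes were between 1 and 2 with arrays left out. PEP8 had -0.00 under median centring. VPS52 had 0.03 without control replicate 1, 0.03 without control replicate 2 and 0.04 without zymolyase replicate 1, and VPS5 0.00 without zymolyase replicate 3; with arrays left out singly they ranged from -0.08 to 0.04 and from -0.08 to 0.00. The cause of these shifts was not tested.

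Same-numbered arrays of the 2 groups had correlated deviations of 0.047, 0.066 and 0.016, so the replicate numbers were not taken as pairs. With the replicate block, 10 VPS genes were higher and 19 lower, VPS3 being the added call (adjusted p = 0.0499). Changes below the spread of 3 arrays cannot be seen, and VPS51 is limited by its signal over background.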
